A study of Mus musculus with 6 samples.

Results

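Macrophages secrete growth factors and vasoactive peptides that act on neighbouring vessels, epithelia and stroma. The peaks described here are those that the authors' annotation placed nearest to 8 genes of this kind: Edn1, Hbegf, Areg, Ereg, Pdgfa, Pdgfb, Vegfa and Igf1. They were taken from all 6 peak lists of the series by the gene name in the annotation, which is the gene with the nearest transcription start site (TSS). The rule found 192 peaks of 134964, in 72 merged regions of 60856, and all 8 genes had at least 1 peak, of 14930 genes with a peak in any list. It used no score, but Edn1 and Hbegf were included as genes that the study reported as activated by IL-4. A direction after IL-4 at these genes, or in totals that hold them, is therefore not independent of the choice. A nearest gene is also not shown to be the gene that a peak regulates.

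The lists come from chromatin immunoprecipitation sequencing (ChIP-seq) of bone marrow-derived macrophages (BMDMs) of C57BL/6 mice aged 8 to 12 weeks. Marrow cells were grown for 6 days with L929 supernatant, a source of macrophage colony-stimulating factor, and the genotype was wild type in every group. Cells received either no IL-4 (control) or 20 ng/ml IL-4 for 1 h, and chromatin crosslinked by DSG plus formaldehyde was immunoprecipitated for C/EBPα, IRF8 or JUNB. Each of the 6 combinations is 1 sample. There is therefore no spread between replicates, no difference below was tested, and an effect of IL-4 cannot be told apart from any other difference between the 2 libraries of a factor. The design asks how the lineage-determining factors, which mark macrophage enhancers before a signal arrives, respond in the first hour of IL-4.

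Endothelin-1, the product of Edn1, is a vasoconstrictor peptide that is cut from a larger precursor. Hbegf, Areg and Ereg encode membrane-anchored ligands of the epidermal growth factor (EGF) receptor family that proteases release, while PDGF-A, PDGF-B and VEGF-A signal through receptor tyrosine kinases on stromal and endothelial cells. Insulin-like growth factor 1, encoded by Igf1, is a growth and survival factor that alternatively polarized macrophages are known to produce. IL-4 signals through STAT6, C/EBPα is a myeloid basic leucine zipper factor, IRF8 binds DNA largely with partners such as PU.1, and JUNB is a subunit of the dimeric factor AP-1.

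Positions are in the mm10 assembly (GRCm38), and distances are those of the authors' annotation, from the peak centre to the TSS, negative where the peak lies upstream. In the GENCODE models, Edn1 lies at chr13:42301476-42307990 on the plus strand, Areg at chr5:91139599-91148432 and Ereg at chr5:91074622-91093646 on the plus strand, and Igf1 at chr10:87858265-87937042 on the plus strand. On the minus strand, Hbegf lies at chr18:36504927-36515805, Pdgfa at chr5:138976014-138997370, Pdgfb at chr15:79995874-80014977 and Vegfa at chr17:46016993-46032369. The TSS used for Edn1 lay 206 bp upstream of the GENCODE start, and that used for Vegfa lay 7205 bp inside the gene from its GENCODE 5′ end. Those used for Pdgfa (chr5:138994953) and Igf1 (between chr10:87859056 and 87861112) also lay inside the GENCODE genes.

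The measurement is the deposited Peak Score, which carries no stated unit and was read as a −log10 p or q. It grows with sequencing depth, the depth of these libraries is unknown, and it is no count of reads. The JUNB lists were short, at 3940 peaks in control and 2325 after IL-4, beside 24486 and 24612 of C/EBPα and 37525 and 42076 of IRF8. Median scores of the whole JUNB lists were 7.88 in control and 6.21 after IL-4, with 11.195 and 11.22 in C/EBPα and 10.34 and 9.61 in IRF8. Of 7 macrophage marker genes looked up, 6 had peaks (131 in all), while the T cell list had 2 peaks at 1 of 3 genes and the B cell list 5 peaks at 2 of 3. There were also 13 peaks at 2 of 3 fibroblast genes and 18 at 1 of 2 hepatocyte genes, and a peak near a gene is no measure of its expression.

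The 8 loci were mostly bound far from the gene. Of the 192 peaks, 155 (80.7%) were intergenic, against 43% of all peaks in the series, 29 were intronic, 4 lay at promoters and 4 in untranslated regions. The median distance to the TSS was 42116 bp, against 20490 bp over all peaks, and 10 peaks lay within 3000 bp. Repeats underlay 17.2% of them, against 21.4% of all peaks. Edn1 and Igf1 held 135 of the 192 peaks (70.3%). Igf1 had 14 and 17 C/EBPα peaks in control and after IL-4, numbers that 1.05% and 0.537% of the genes with a C/EBPα peak reached, and 20 and 19 IRF8 peaks. Edn1 had 10 and 13 C/EBPα peaks and 15 IRF8 peaks in either condition. At the other end, Areg had 4 peaks over all lists and Ereg 5.

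A peak was called shared when it overlapped a peak of the same factor in the other condition by at least 1 bp, and control-only or IL-4-only otherwise. C/EBPα had 33 peaks at the 8 genes in control and 38 after IL-4. Of these, 5 were control-only, which is 15.2% (Wilson 95% interval 6.65% to 30.9%, counting error only) against 21.4% of all C/EBPα control peaks, and 10 were IL-4-only, which is 26.3% (15% to 42.0%) against 22.0%. For IRF8, with 51 and 52 peaks, 6 were control-only (11.8%, 5.51% to 23.4%, against 21.4%) and 8 were IL-4-only (15.4%, 8.01% to 27.5%, against 30.4%). The interval of the IRF8 IL-4-only share lay below the background, and those of the other 3 shares included it. IRF8 peaks of the 8 genes also scored higher than their lists. Their medians were 13.9 in control and 17.355 after IL-4, against 10.34 and 9.61 over all IRF8 peaks. Condition-only peaks were mostly weak, and the part of peak strength in the low share was not tested. JUNB had 12 peaks in control and 6 after IL-4. All 6 IL-4 peaks were shared, so 0 were IL-4-only (up to 39.0% by the Wilson interval, against 39.2% of all JUNB IL-4 peaks), and 6 of the 12 control peaks were control-only (50%, 25.4% to 74.6%, against 64.2%).

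**Figure D1:**
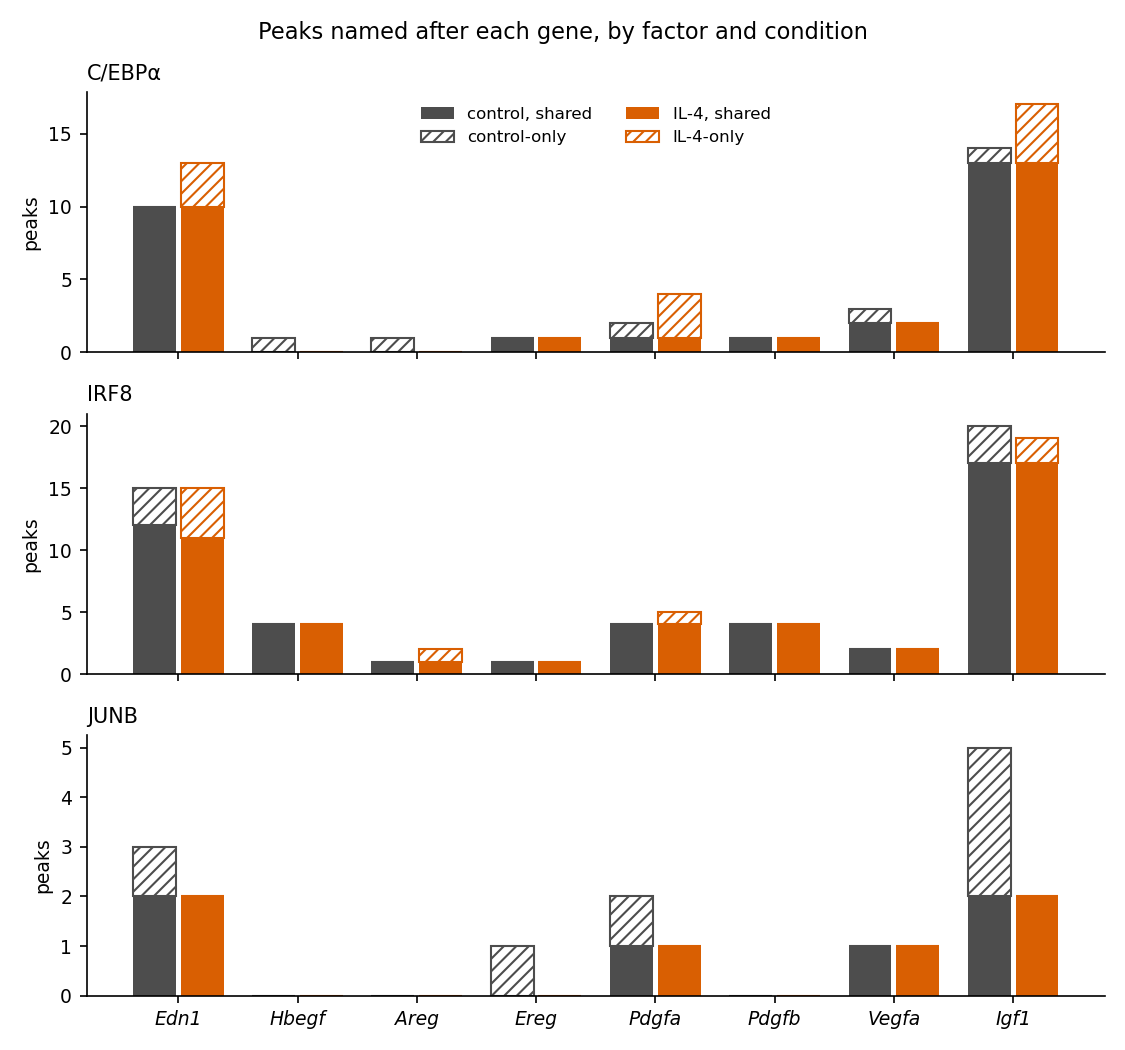
Number of peaks (vertical axis) named after each of the 8 genes (horizontal axis) for C/EBPα, IRF8 and JUNB, with control in grey and IL-4 in orange, and 1 sample per bar. Filled parts are peaks shared between the conditions and hatched parts are found in 1 condition only. Igf1 and Edn1 carry most peaks, with 17 C/EBPα and 19 IRF8 peaks at Igf1 after IL-4, and JUNB has no hatched orange part.

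C/EBPα and IRF8 peaks found in 1 condition were mostly weak, as they were over the whole lists. Their median score was 5.62 for C/EBPα control-only, 6.045 for C/EBPα IL-4-only, 5.45 for IRF8 control-only and 6.835 for IRF8 IL-4-only peaks, against 14.735 and 17.41 for the shared peaks of these factors. The medians over all peaks of the same kinds were 5.62, 5.885, 5.33 and 4.99. JUNB control-only peaks had a median of 7.94 and a highest score of 9.02. The shared JUNB peaks had a median of 8.055 over both conditions together, but of 5.875 after IL-4. In control the shared JUNB peaks scored 19.24, 13.83, 12.58, 9.08, 7.03 and 5.46, so most were above the control-only ones. Over all JUNB peaks the medians were 6.79 for control-only and 8.7 for shared peaks. Only 6 condition-only peaks reached a score of 10, and 5 of them were IL-4-only: a C/EBPα and an IRF8 peak at Edn1, one of each factor at Pdgfa, and a C/EBPα peak at Igf1. The control-only one was a C/EBPα peak at Vegfa. By kind, 3 of 10 C/EBPα IL-4-only peaks reached 10 (against 14.7% of all such peaks), 2 of 8 IRF8 IL-4-only peaks (10.2%), 1 of 5 C/EBPα control-only peaks (9.66%) and 0 of 6 IRF8 control-only peaks (8.34%), numbers too small to set the 8 genes apart.

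Shared peaks were paired one-to-one, and a pair was called higher or lower when the IL-4 score differed from the control score by at least 1.5-fold. C/EBPα scores were higher in 12 of 28 pairs (42.9%, 26.5% to 60.9%) against 17.7% of all C/EBPα pairs, and lower in 4 (14.3%) against 17.8%. For IRF8, 12 of 44 pairs were higher (27.3%, 16.3% to 41.8%, against 23.6%) and 3 were lower (6.82%, 2.35% to 18.2%, against 17.5%). Counted without the 1.5-fold limit, 20 of the 28 C/EBPα pairs (71.4%) and 33 of the 44 IRF8 pairs (75%) had a higher value after IL-4, against 49.7% and 55.4% of all pairs. JUNB went the other way, with 1 of 6 pairs higher (16.7%, 3.01% to 56.4%, against 9.60%) and 4 lower (66.7%, 30.0% to 90.3%, against 47.9%), or 2 lower with each score divided by the median of its list. C/EBPα had a median log2 ratio of IL-4 to control score of 0.09, IRF8 of 0.37 and JUNB of -0.75, where all pairs of these factors had medians of 0.00, 0.08 and -0.54. Peaks of a locus share their surroundings and are not independent, so the intervals describe these lists and not the conditions.

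**Figure D2:**
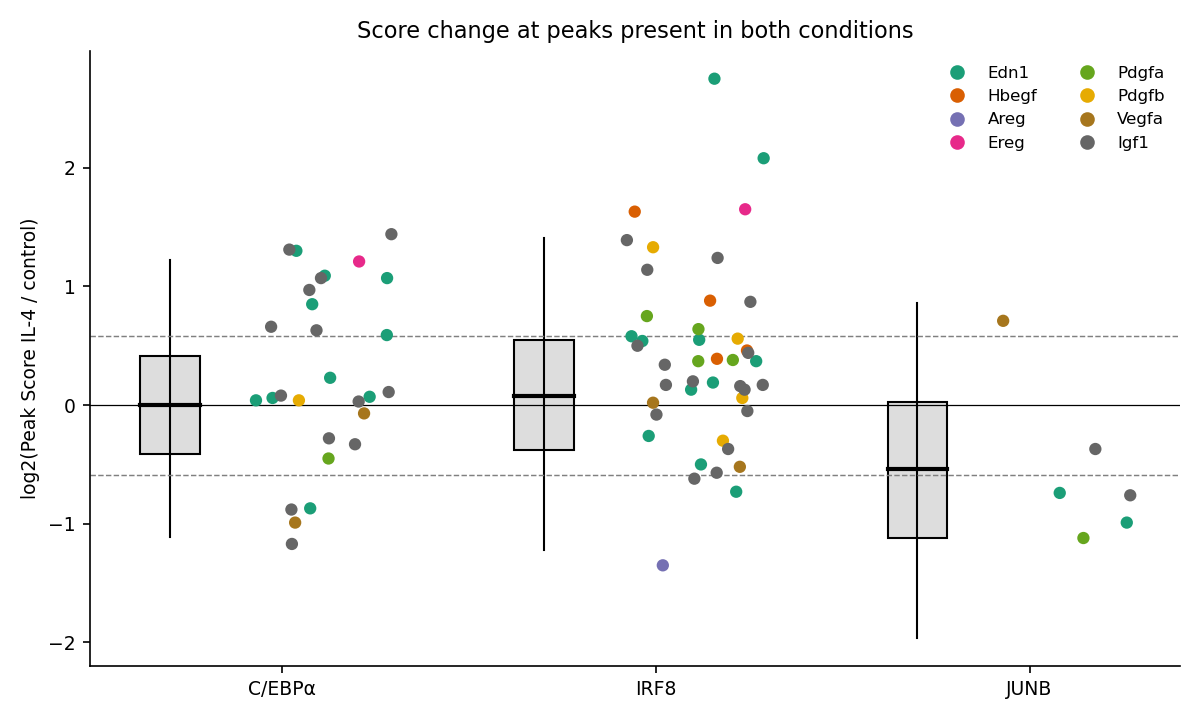
Log2 ratio of the IL-4 to the control Peak Score (vertical axis) at shared pairs of C/EBPα, IRF8 and JUNB. Points are pairs at the 8 genes, coloured by gene and spread sideways for legibility. The grey boxes give the middle of all pairs of the factor (25th to 75th percentile, thick line at the median, thin line from the 5th to the 95th percentile), and dashed lines mark 1.5-fold. The highest IRF8 point is the Edn1 promoter at 2.75 and the lowest is Areg at -1.35, while 1 of the 6 JUNB points lies above 0.

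At Edn1, C/EBPα scores were mostly higher after IL-4, and IRF8 was much higher at the promoter and at a few places upstream but not over the whole locus. All 10 C/EBPα control peaks were shared, and 5 of the 10 pairs were at least 1.5-fold higher (against 17.7% of all C/EBPα pairs) and 1 was lower (against 17.8%). A further 3 of the 13 IL-4 peaks were IL-4-only, which is 23.1% and close to the 22.0% of the whole list. Of the 11 IRF8 pairs, 2 were higher (18.2%, against 23.6%) and 1 was lower (9.09%, against 17.5%), while 3 of the 15 control peaks were control-only (20.0%, against 21.4%) and 4 of the 15 IL-4 peaks were IL-4-only (26.7%, against 30.4%). The promoter peak of IRF8, 83 bp from the TSS used by the authors, scored 2.59 in control and 17.41 after IL-4. This ratio of 6.72 was the largest of all 44 IRF8 pairs at these genes. It rests on a control score among the lowest of its list (percentile 1.4). Upstream, at -9.0 kb, neither factor had a control peak, while an IRF8 peak of score 35.02 and a C/EBPα peak of score 6.09 were called after IL-4. At -52.4 kb IRF8 scored 10.93 in control and 46.21 after IL-4, and a C/EBPα peak of score 22.26 was called only after IL-4. At -47.3 kb the C/EBPα score was 8.09 and 16.95 and an IRF8 peak of 7.41 was IL-4-only, and weaker IL-4-only peaks lay at -27.2 kb (IRF8, 7.13) and -25.6 kb (C/EBPα, 7.44). Other upstream places went the other way: IRF8 had control-only peaks of 4.61 at both -68.9 and -5.2 kb, and it scored 15.48 in control and 12.96 after IL-4 at -55.2 kb.

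The strongest region of Edn1 lay at -42.6 kb and was bound by all 3 factors in both conditions. IRF8 scored 90.28 in control and 131.95 after IL-4, above 95.3% and 97.8% of its list. C/EBPα scored 49.96 and 51.96, and JUNB scored 19.24 and 9.66. The study designed a primer pair for an enhancer RNA at this place, and its 68-bp product was matched to chr13:42258872-42258939, which begins at the downstream edge of the IRF8 peaks and of the C/EBPα control peak. The 200 bp under the strongest peak of this region are printed with those of the regions at -9.0 and -52.4 kb that had IL-4-only peaks, all on the plus strand, with matches to the motifs searched in capitals (explained with the motif counts further on).
Edn1 -42.6 kb, chr13:42258533-42258732: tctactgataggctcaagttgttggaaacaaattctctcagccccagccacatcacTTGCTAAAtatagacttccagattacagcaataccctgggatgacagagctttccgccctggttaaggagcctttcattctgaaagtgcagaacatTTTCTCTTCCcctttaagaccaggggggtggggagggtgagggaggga
Edn1 -9.0 kb, chr13:42292135-42292334: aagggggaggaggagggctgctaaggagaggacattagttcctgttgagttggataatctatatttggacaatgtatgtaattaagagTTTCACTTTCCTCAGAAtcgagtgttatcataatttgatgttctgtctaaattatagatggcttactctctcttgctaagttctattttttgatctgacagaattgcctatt
Edn1 -52.4 kb, chr13:42248805-42249004: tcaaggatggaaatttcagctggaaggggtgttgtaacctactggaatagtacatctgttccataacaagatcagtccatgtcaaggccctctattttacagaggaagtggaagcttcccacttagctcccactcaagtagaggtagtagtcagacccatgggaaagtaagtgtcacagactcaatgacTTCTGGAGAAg
Forward primer of the enhancer RNA assay: gctctttgctagggttttagacg
Reverse primer of the enhancer RNA assay: atcacgaggcagccactc
The -9.0 kb window holds an interferon-stimulated response element (ISRE) core that runs into a STAT6 motif, the -42.6 kb window holds a C/EBP and a PU.1-IRF match, and the window under the C/EBPα peak at -52.4 kb holds a STAT6 match near its end.

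Downstream of Edn1 both directions were also found. C/EBPα scores were higher after IL-4 at +27.5 kb (9.55 and 14.38), +30.1 kb (3.90 and 9.60) and +66.6 kb (6.79 and 12.24), and lower at +91.6 kb (24.82 and 13.61). IRF8 was lower at +27.5 kb (18.07 and 10.92), with values of 46.84 and 33.23 at +71.2 kb and of 45.20 and 58.28 at +36.0 kb. An IRF8 peak of 6.54 at +91.6 kb was IL-4-only and one of 6.85 at +135.6 kb was control-only. JUNB was found at 3 regions in control. It kept a peak at -42.6 and +27.5 kb, where the score went from 7.03 to 4.22, and its +135.6 kb peak of 8.35 was control-only.

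**Figure D3:**
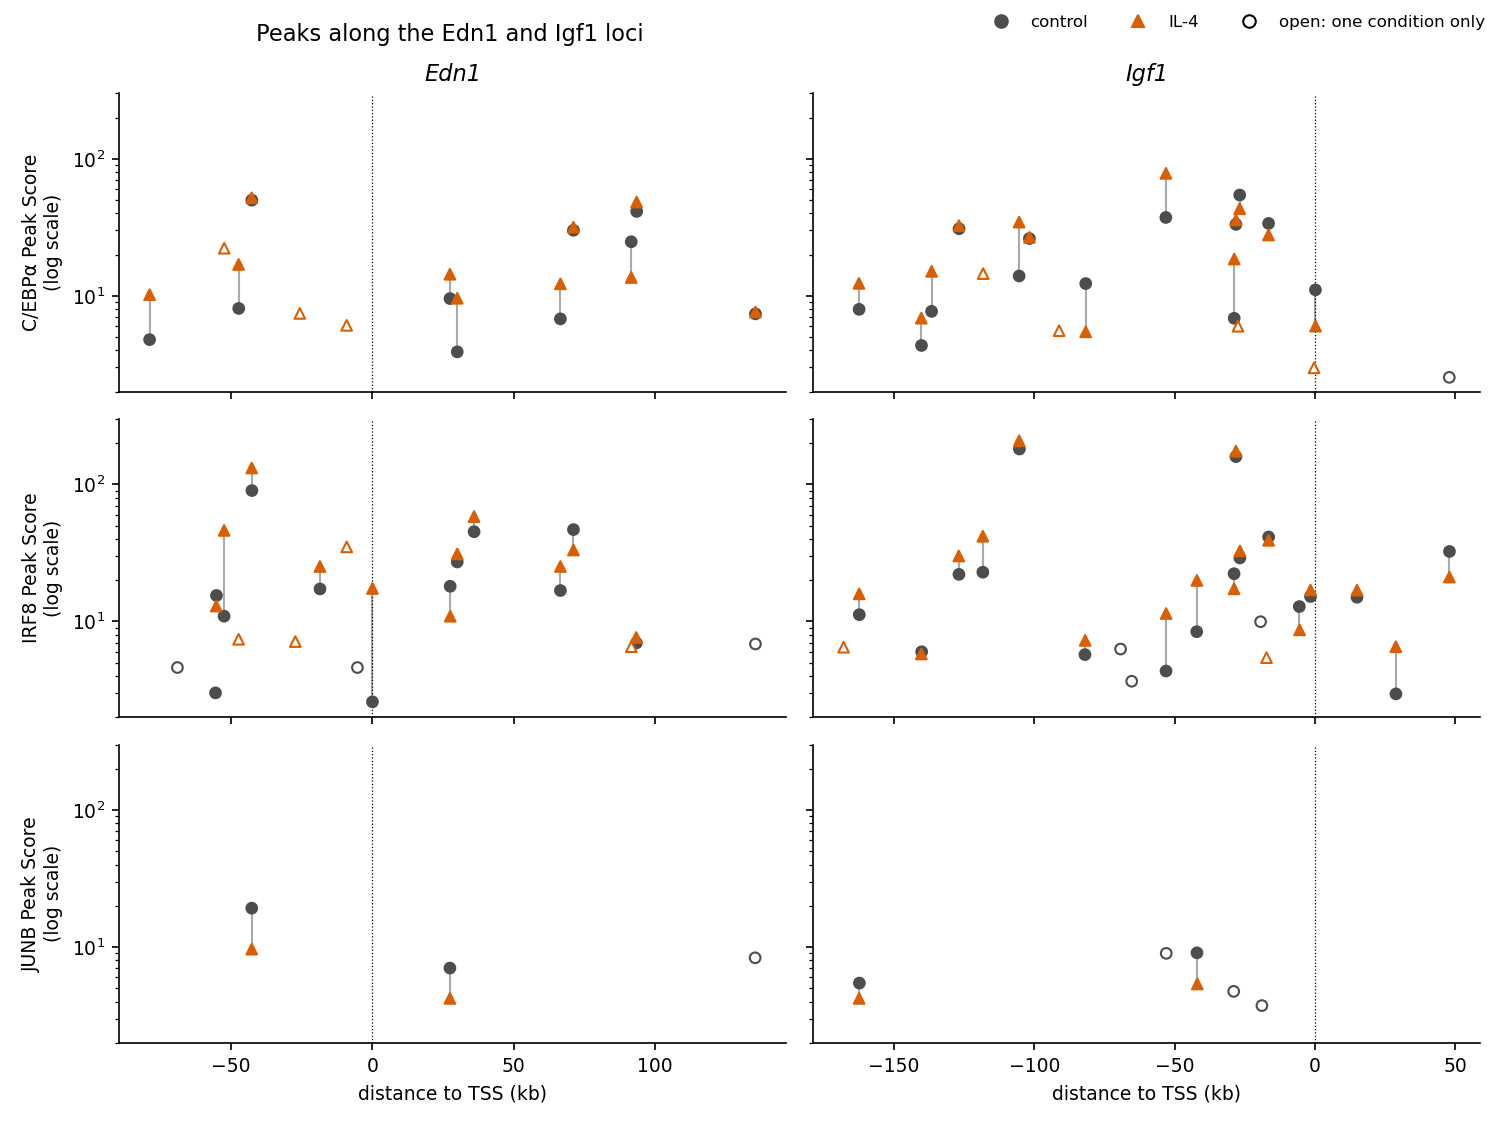
Peak Score on a log axis against the distance to the TSS in kb for all peaks named Edn1 (left) and Igf1 (right), with a row per factor, control as grey circles and IL-4 as orange triangles, 1 sample each. Lines join shared pairs and open symbols are peaks of 1 condition. At Edn1 the IL-4 triangles stand above the control circles at -52.4 kb and at the TSS for IRF8, and at Igf1 the C/EBPα pairs that separate upward lie upstream of -28 kb.

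Among the EGF receptor ligands, Hbegf was an IRF8 locus. IRF8 had the same 4 places in both conditions. All 4 pairs had higher values after IL-4, against 55.4% of all IRF8 pairs, and 2 of the 4 passed 1.5-fold, against 23.6%. The score at +24.1 kb, downstream of the gene, was 10.77 in control and 33.28 after IL-4 (3.09-fold). In intron 3 it was 13.90 and 19.08, in intron 2 it was 2.33 and 4.29, and at +22.1 kb it was 3.57 and 4.67. C/EBPα had a single weak control-only peak of 4.54 at +17.8 kb, and no JUNB peak was named after Hbegf in either condition. The study's other enhancer RNA assay of these genes is placed about 43 kb downstream of Hbegf, and its 65-bp product (chr18:36472901-36472965) overlapped no peak. Peaks 43.1 to 45.0 kb from the Hbegf start carry the name of Pfdn1, whose start is nearer, and are not counted among the 192. They were looked up because of the assay, with their values seen. IRF8 scored 25.71 in control and 38.87 after IL-4 at chr18:36472213-36472659, C/EBPα scored 3.22 and 13.72 there, and JUNB had an IL-4-only peak of 4.72. Beside it, at 36470793, a C/EBPα peak of 25.17 and an IRF8 peak of 11.09 were called only after IL-4.

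Areg, which encodes amphiregulin, had 4 peaks. The IRF8 peak over its last exon, +8.7 kb from the TSS, scored 30.21 in control and 11.87 after IL-4, the only pair of the 3 EGF receptor ligands that was lower. At the promoter, -151 bp from the TSS, a weak IRF8 peak of 4.99 was IL-4-only. The single C/EBPα peak, of 5.62 at -25.5 kb, was control-only.

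Ereg, the epiregulin gene, which lies next to Areg on chromosome 5, had 1 bound region, in its intron 1 at +8.6 kb. All 3 factors had a peak there in control. C/EBPα scored 4.79 and 11.11, IRF8 scored 4.61 and 14.42, in control and after IL-4, and the JUNB control peak of 9.02 had no counterpart after IL-4. Both factors that stayed thus had higher scores (2.32-fold and 3.13-fold) where JUNB was no longer called. Its 200-bp window, on the plus strand, is shown because it holds 2 AP-1 motifs and a C/EBP motif close together.
Ereg 8.6 kb, chr5:91083141-91083340: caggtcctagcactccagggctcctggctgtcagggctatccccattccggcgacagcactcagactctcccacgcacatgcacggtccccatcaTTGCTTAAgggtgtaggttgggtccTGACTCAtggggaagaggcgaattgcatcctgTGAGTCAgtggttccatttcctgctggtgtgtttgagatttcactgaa

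Pdgfa, which encodes the A chain of platelet-derived growth factor, had 6 bound regions, all upstream of the gene. Its strongest peak was IRF8 at -29.7 kb, in intron 9 of Prkar1b, the neighbouring gene of a protein kinase A regulatory subunit, with scores of 95.55 in control and 124.13 after IL-4. C/EBPα scored 20.59 and 15.12 there. At -3.2 kb IRF8 scored 49.69 and 64.09. This region, chr5:138997924-138998361, lies close to and upstream of the GENCODE 5′ end of Pdgfa at 138997370. At -47.5 kb IRF8 scored 20.56 and 34.66, beside an IL-4-only C/EBPα peak of 3.24. All 4 IRF8 pairs of Pdgfa had higher values after IL-4 (against 55.4% of all IRF8 pairs), and 2 of them passed 1.5-fold (against 23.6%). At -65.8 kb, in intron 6 of Prkar1b, C/EBPα and IRF8 peaks of 10.58 and 11.56 were both IL-4-only, while a JUNB peak of 7.53 was control-only. A region at -20.2 kb had a C/EBPα control-only peak of 9.78, IRF8 scores of 12.59 and 19.59, and JUNB scores of 13.83 and 6.37. Windows are printed on the plus strand, the strongest region with its STAT6 match and the region with IL-4-only C/EBPα and IRF8 peaks and a control-only JUNB peak with its AP-1 match.
Pdgfa -29.7 kb, chr5:139024615-139024814: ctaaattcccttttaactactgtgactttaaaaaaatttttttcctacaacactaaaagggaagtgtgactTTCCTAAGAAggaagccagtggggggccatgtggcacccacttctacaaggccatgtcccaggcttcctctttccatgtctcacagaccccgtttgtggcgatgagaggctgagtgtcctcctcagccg
Pdgfa -65.8 kb, chr5:139060648-139060847: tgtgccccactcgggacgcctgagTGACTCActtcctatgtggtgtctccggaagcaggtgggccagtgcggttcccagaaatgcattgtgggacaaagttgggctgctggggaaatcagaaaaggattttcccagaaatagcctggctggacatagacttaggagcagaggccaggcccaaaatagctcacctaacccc

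Pdgfb, the gene of the B chain, was the only locus of the 8 without a condition-only peak, with 4 regions and no JUNB peak. For IRF8 this was 0 of 4 peaks in control and 0 of 4 after IL-4, against 21.4% and 30.4% of its lists. The Wilson intervals reached 49%, and the peaks were too few to set the locus apart. For C/EBPα it was 0 of 1 in either condition, against 21.4% and 22.0%. IRF8 scored 61.41 in control and 50.05 after IL-4 at -6.9 kb, 21.13 and 31.17 at -15.8 kb, and 6.85 and 7.13 in intron 1. Only the pair at -20.2 kb, with 6.31 and 15.82, passed 1.5-fold, which is 1 of 4 IRF8 pairs (25%) and near the series share of 23.6%. C/EBPα had a single weak pair at -15.8 kb, with scores of 3.54 and 3.64. The strongest window holds an AP-1 and a PU.1-IRF match although no JUNB peak was called on it.
Pdgfb -6.9 kb, chr15:80021566-80021765: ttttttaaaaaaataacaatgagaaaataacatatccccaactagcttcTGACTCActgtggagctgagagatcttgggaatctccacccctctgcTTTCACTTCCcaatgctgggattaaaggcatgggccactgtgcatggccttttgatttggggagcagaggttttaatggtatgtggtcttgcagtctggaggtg

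Vegfa, the vascular endothelial growth factor gene, was bound downstream of its 3′ end, and no peak lay at its promoter. IRF8 at +71.4 kb had the highest score of all 192 peaks, 223.72 in control and 226.42 after IL-4, above 99.8% and 99.7% of its list. C/EBPα scored 26.60 and 25.27 at the same place. JUNB scored 12.58 in control and 20.59 after IL-4 there, the only JUNB pair of the 8 genes with a higher value. C/EBPα was lower at +66.9 kb, with 18.63 and 9.39, and its peak of 10.64 at +11.4 kb was control-only. IRF8 at +85.7 kb scored 5.71 and 3.97.

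Igf1 was the largest of these loci, with 77 peaks in 29 regions that reached from -168.0 kb to +47.9 kb. Its strongest regions were bound by IRF8 in both conditions with little change. At -105.4 kb IRF8 scored 181.46 in control and 208.37 after IL-4, above 99.2% and 99.5% of its list, and at -28.2 kb it scored 159.68 and 174.95. C/EBPα scores differed more: at -105.4 kb they were 13.96 and 34.55, whereas at -28.2 kb they were 33.24 and 35.79. The largest C/EBPα score of the 192 peaks lay at -53.1 kb, with 37.32 in control and 78.33 after IL-4. IRF8 there went from 4.35 to 11.43, and a JUNB peak of 9 was control-only.

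Of the 13 C/EBPα pairs at Igf1, 6 were higher after IL-4 (46.2%, 23.2% to 70.9%, against 17.7% of all C/EBPα pairs) and 2 were lower (15.4%, near the 17.8% of all pairs). IL-4-only peaks were 4 of 17 (23.5%, against 22.0%). All 6 lay at -28.8 kb or farther upstream, and they included 6.86 and 18.56 at -28.8 kb and 7.70 and 15.09 at -136.6 kb. Of the 4 pairs closer to the gene, 3 had lower values: 54.47 and 43.32 at -26.8 kb, 33.78 and 27.81 at -16.5 kb, and 11.06 and 6.01 in the first exon. This order along the locus was noticed in the values and has no test, and the lower pair at -81.8 kb, with 12.29 and 5.46, does not follow it. A C/EBPα peak of 14.53 at -118.3 kb was IL-4-only, next to an IRF8 pair of 22.89 and 41.89, and the other IL-4-only C/EBPα peaks scored 5.57, 6.00 and 2.98, the last at the promoter.

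IRF8 at Igf1 had 4 higher pairs of 17 (23.5%), near the series share of 23.6%, and 1 lower pair (5.88%, against 17.5%). The higher ones included 8.42 and 19.93 at -42.1 kb, and the lower one was 32.44 and 21.08 at +47.9 kb, in intron 2. Near the start, IRF8 scored 15.21 and 16.97 at -1.6 kb and 12.85 and 8.68 at -5.5 kb. Its 3 control-only peaks reached 9.96 and its IL-4-only peaks 6.49. JUNB had 5 control peaks and 2 IL-4 peaks. The shared ones scored 5.46 and 4.22 at -162.4 kb and 9.08 and 5.38 at -42.1 kb. Windows are printed on the plus strand: the region with the largest C/EBPα score and its AP-1 motif, the strong IRF8 region with a PU.1-IRF match beside a pair of STAT6 matches, and the IL-4-only C/EBPα peak with its STAT6 match.
Igf1 -53.1 kb, chr10:87805846-87806045: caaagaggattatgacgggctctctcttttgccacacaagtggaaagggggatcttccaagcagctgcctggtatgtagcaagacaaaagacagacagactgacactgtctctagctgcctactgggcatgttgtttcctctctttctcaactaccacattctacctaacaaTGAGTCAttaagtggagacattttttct
Igf1 -28.2 kb, chr10:87830779-87830978: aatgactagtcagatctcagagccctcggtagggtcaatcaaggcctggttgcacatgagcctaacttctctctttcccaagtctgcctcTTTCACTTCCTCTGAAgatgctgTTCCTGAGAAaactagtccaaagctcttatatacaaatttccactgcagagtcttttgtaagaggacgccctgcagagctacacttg
Igf1 -118.3 kb, chr10:87740721-87740920: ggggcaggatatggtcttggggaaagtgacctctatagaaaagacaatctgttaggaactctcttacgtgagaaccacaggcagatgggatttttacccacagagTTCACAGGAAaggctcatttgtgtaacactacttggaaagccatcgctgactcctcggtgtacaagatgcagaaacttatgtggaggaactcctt

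Peaks of the 6 lists were then merged where they touched, to see which factors shared a region. All 3 factors were present at 9 of the 72 regions in control (12.5%, against 4.19% of all regions of the series) and at 4 after IL-4 (5.56%, against 2.61%). C/EBPα and IRF8 without JUNB were present at 14 regions in control (19.4%, against 19.1%) and at 23 after IL-4 (31.9%, against 21.7%). With or without JUNB, this makes 23 regions with both factors in control and 27 after IL-4, of which Igf1 held 11 in either condition and Edn1 7 and 10. IRF8 alone held 26 regions in control (36.1%, against 36.4% of all regions) and 23 after IL-4 (31.9%, against 43.7%). The same set of factors was found in both conditions at 41 regions (56.9%, against 47.6%), and 10 regions were bound only after IL-4 (13.9%, against 22.1%) and 9 only in control (12.5%, against 15.4%).

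JUNB had a peak in at least 1 condition at 12 of these 72 regions, against 4807 of 60856 in the series. Both other factors also did at 10 of the 12 (83.3%), against 70.4% of the JUNB regions of the series. It was lost at 6 regions. C/EBPα was gained or higher at 4 of the 6, against 13.3% of all 2495 regions that lost JUNB, and IRF8 at 3 of the 6, against 19.2%. The 4 regions were Ereg +8.6 kb, Pdgfa -65.8 kb, Igf1 -53.1 kb and Igf1 -28.8 kb, and at the last the IRF8 score was 22.31 in control and 17.30 after IL-4, with a JUNB control peak of 4.75. The remaining regions were Edn1 +135.6 kb, where C/EBPα scored 7.39 and 7.62 and an IRF8 peak of 6.85 was lost as well, and Igf1 -18.9 kb, where JUNB was alone with 3.74. In all, 8 regions held at least 1 factor that was gained or higher and another that was lost or lower. They were 8 of the 31 regions with at least 2 factors (25.8%), against 14.0% of the 19645 such regions of the series. In 7 of the 8 the factor that was lost or lower included JUNB, against 32.9% of the 2741 such regions of the series. JUNB was present at a larger share of the regions of these genes than of the series, and the part of this in the contrast was not tested. The exception was Edn1 +91.6 kb, where C/EBPα was lower and IRF8 appeared. The whole JUNB IL-4 list is shorter and has lower scores than its control list, and the part of that difference in these losses was not tested.

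**Figure D4:**
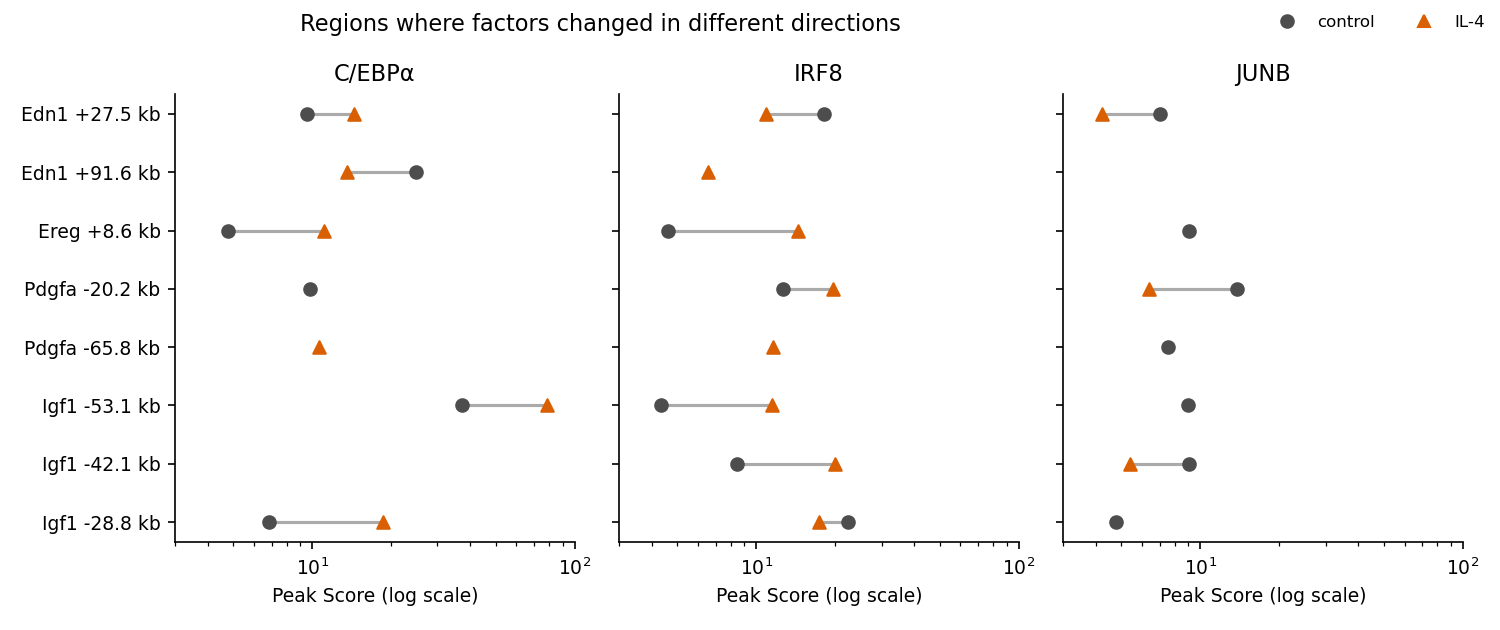
Peak Scores on a log axis at the 8 regions where factors changed in different directions, with a panel per factor, control as grey circles and IL-4 as orange triangles, 1 sample each. A symbol without a partner is a peak of 1 condition, and a missing row means no peak. JUNB lies to the left after IL-4 or is missing at all 7 regions where it had a peak, while C/EBPα or IRF8 lies to the right or appears. The regions were chosen for opposite directions, so a rise of another factor where JUNB falls follows from the choice.

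Motif letters were searched on both strands in the 200 bp around each peak's centre: AP-1 as TGANTCA, C/EBP as TTGCNNAA, ISRE as GAAANNGAAA, the composite of PU.1 and IRF as GGAANNGAAA, and STAT6 as TTCNNNNGAA. These patterns can overlap, as at Edn1 -9.0 kb, and a match is a match of letters and not a bound site. The AP-1 letters were under 7 of the 12 JUNB control peaks of the 8 genes (58.3%), against 55.2% of all JUNB control peaks, and under 4 of the 6 control-only ones. C/EBP letters were under 13 of 33 C/EBPα control peaks (39.4%, against 34.3%), and PU.1-IRF letters under 12 of 51 IRF8 control peaks (23.5%, against 15%). The PU.1-IRF share was thus above that of the whole list, with 11 of 52 after IL-4 (21.2%, against 13.9%), and the AP-1 and C/EBP shares were close to theirs. These 11 IL-4 peaks lay at places that also held the letters in control, and this pattern was chosen after values were seen. ISRE letters were under 4 of 51 IRF8 control peaks (7.84%, against 9.71%) and 6 of 52 after IL-4 (11.5%, against 9.42%).

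STAT6 letters differed by the status of the peak. They were under 5 of the 18 IL-4-only peaks of the 8 genes and under 0 of the 17 control-only peaks, with 22 of 157 among the shared ones. Over all peaks of the 3 factors the shares were 14.4%, 4.02% and 7.06% in that order. The peaks of the 8 genes thus show the same order as the series, and their share among shared peaks was above the 7.06% of the series. Among shared peaks a place is counted again for each factor and condition. At Igf1 -28.2 kb and Pdgfa -29.7 kb, for example, C/EBPα and IRF8 peaks of both conditions held the letters. The 22 peaks are therefore not 22 separate sites. The 5 IL-4-only peaks were IRF8 and C/EBPα at Edn1 -9.0 kb, C/EBPα at Edn1 -52.4 kb, C/EBPα at Igf1 -118.3 kb and IRF8 at Igf1 -17.3 kb (score 5.44). Both peaks at Edn1 -9.0 kb hold the same match, which is thus counted for each. They include 3 of the 5 IL-4-only peaks that scored at least 10. For C/EBPα alone, 20.0% of all IL-4-only peaks held the letters, against 7.45% of the shared peaks after IL-4 and 3.41% of the control-only peaks. STAT6 binding itself was not measured in these lists.

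**Figure D5:**
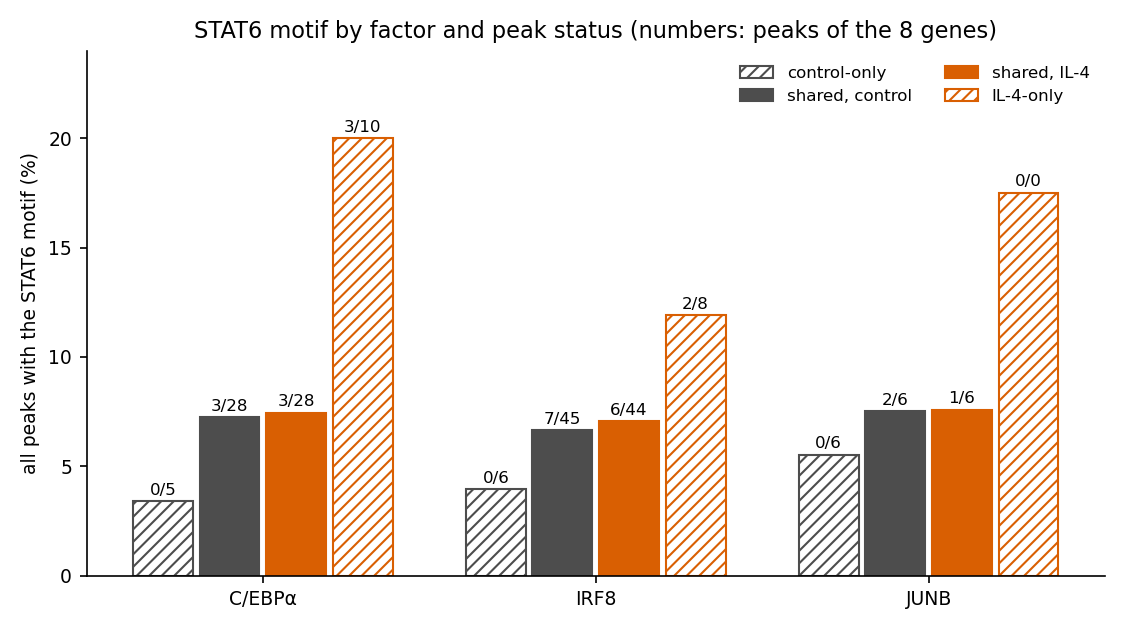
Share of all peaks with STAT6 letters in the central 200 bp (vertical axis, percent) for each factor, by status: control-only and IL-4-only hatched, shared peaks filled, control in grey and IL-4 in orange. The fractions above the bars count the peaks of the 8 genes with the letters, such as 3 of 10 for C/EBPα IL-4-only. The IL-4-only bar is the highest in each factor, with 20.0% in C/EBPα, 11.9% in IRF8 and 17.5% in JUNB.

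Other genes of the same pathways were counted in the same way. Of 16 further ligands (such as Tgfa, Pdgfc, Vegfb and Igf2), 12 had a peak. Their C/EBPα peaks were control-only in 1 of 26 (3.85%, against 21.4% of the whole list) and IL-4-only in 5 of 29 (17.2%, against 22.0%), and their IRF8 peaks in 9 of 43 (20.9%, against 21.4%) and 10 of 44 (22.7%, against 30.4%). Of 15 receptors, 13 had a peak. Here 14 of 60 C/EBPα peaks were control-only (23.3%) and 15 of 60 IL-4-only (25%), near the shares of the whole list, and for IRF8 the numbers were 12 of 95 (12.6%) and 18 of 101 (17.8%), below them. Of 12 genes for processing enzymes and IGF-binding proteins, 8 had a peak, with 3 of 16 and 5 of 18 for C/EBPα (18.8% and 27.8%) and 4 of 25 and 10 of 31 for IRF8 (16.0% and 32.3%). JUNB had 1 control-only peak of 3 at the ligands, 6 of 13 at the receptors and 1 of 6 at the last list, and IL-4-only peaks (3 of 10) only at the receptors. Only 3 of these genes had a condition-only peak with a score of at least 15. They were the semaphorin and VEGF co-receptor gene Nrp2, with an IRF8 IL-4-only peak of 17.48 at -14019 bp, the VEGF receptor gene Flt1, with an IRF8 IL-4-only peak of 15.48 in intron 15, and the neuregulin gene Nrg2, with an IRF8 control-only peak of 15.93 at -41478 bp.

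The gene name of a peak depends on the annotation. With the nearest TSS taken from GENCODE, 106 of the 192 peaks kept the name of 1 of the 8 genes, and 6 C/EBPα and 5 IRF8 peaks of these were IL-4-only. Hbegf and Areg kept all 9 and 4 of theirs, Pdgfa kept 14 of 18 (the others became Prkar1b), Pdgfb 8 of 10, Igf1 43 of 77 and Edn1 27 of 58. Ereg kept 0 of 5 and Vegfa 1 of 11, because transcripts named Gm19610 and AC127690.1 start nearer. For Edn1 and Igf1 the nearer transcripts were Gm47118, Gm6049, Gm48195 and Igf1os.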

How the data were processed

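The submitters' processing notes name BWA 0.7.10, SAMtools 0.1.19, HOMER 4.2 and MACS2 2.0.10. In the study's methods, reads were aligned to mm10 by the authors, who called peaks per sample with MACS2 at a q-value limit of 0.01 and removed blacklisted regions. The control library and read depth were not given in the sources used here, and 2 library kits are named without saying which sample had which. The Peak Score deposited by the authors was, judging by its values, read as a −log10 p or q. Between 1 and 48 peaks per list scored below 2. The deposited coordinates, distances to the TSS and HOMER annotation were used unchanged, and starts may be off by 1 bp.

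Peaks were chosen by gene name, overlapped within a factor (at least 1 bp), paired one-to-one by largest overlap, and merged across lists. The 1.5-fold limit called pairs. All 8 genes were described. Single peaks were named when they were the strongest of a gene and list, lay within 3000 bp of the TSS, were condition-only with a score of at least 10, or formed a pair of at least 2-fold with a score of 10 or more. Other pathway genes were named from a score of 15. Others named in the text were chosen after their values were seen, as was the PU.1-IRF motif. The genes, lists and rules were chosen with earlier results of these data known. Sequences were read from the RefSeq GRCm38 genome, which is the mm10 assembly. No peak (0) ended past a chromosome. Gene models were from GENCODE. Wilson intervals cover 95% of the counting error only. Alternatives changed the overlap, score limit, ranking, distance limit, gene assignment, scaling, fold and peak width. Analyses used Python 3.11.15, numpy 2.4.6, pandas 2.3.3, pysam 0.24.0 and matplotlib 3.10.9. Functions were tested on simulated data and against bedtools 2.31.1, and 17 of 17 checks passed.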

Additional observations from a re-analysis of the deposited data

Results flagged for a closer look

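At 8 regions a factor was gained or higher while another was lost or lower under the same treatment, which is why they are listed. These differences were not tested, since each group is 1 sample. Scores are given in control and after IL-4, and a single value is a peak of 1 condition. At Edn1 +27.5 kb, C/EBPα scored 9.55 and 14.38, IRF8 18.07 and 10.92, and JUNB 7.03 and 4.22. At Edn1 +91.6 kb, C/EBPα scored 24.82 and 13.61, and an IRF8 peak of 6.54 was IL-4-only. In intron 1 of Ereg, C/EBPα scored 4.79 and 11.11, IRF8 4.61 and 14.42, and a JUNB peak of 9.02 was control-only.

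At Pdgfa -20.2 kb, a C/EBPα peak of 9.78 was control-only, IRF8 scored 12.59 and 19.59, and JUNB 13.83 and 6.37. At Pdgfa -65.8 kb, C/EBPα and IRF8 peaks of 10.58 and 11.56 were IL-4-only and a JUNB peak of 7.53 was control-only. At Igf1 -53.1 kb, C/EBPα scored 37.32 and 78.33, IRF8 4.35 and 11.43, and a JUNB peak of 9 was control-only. At Igf1 -42.1 kb, IRF8 scored 8.42 and 19.93 and JUNB 9.08 and 5.38. At Igf1 -28.8 kb, C/EBPα scored 6.86 and 18.56, IRF8 22.31 and 17.30, and a JUNB peak of 4.75 was control-only.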

How the results depend on the processing

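Of 70 recomputed counts, 57 stayed within 1.5 times the reported count and 13 did not. With a reciprocal overlap of 50%, 2 JUNB peaks were IL-4-only, and with lists of equal length 1 was, in place of 0. With scores of at least 5, C/EBPα had 3 control-only peaks in place of 5 and IRF8 had 7 higher pairs in place of 12. With the nearest TSS from GENCODE, which keeps fewer peaks, IL-4-only peaks numbered 6 for C/EBPα and 5 for IRF8, and control-only JUNB peaks numbered 3. Scores divided by the list median left 2 lower JUNB pairs in place of 4. A 2-fold limit, stricter by construction, left 7 higher and 1 lower C/EBPα pairs, 1 lower IRF8 pair, and 0 higher and 1 lower JUNB pairs. IL-4-only minus control-only peaks of Igf1, over all factors, was -1, but 4 with scores of at least 5, 2 with lists of equal length, -3 within 100 kb or with GENCODE and -4 with widened peaks. That of Edn1 was 3, and ranged from 2 (reciprocal overlap) to 7 (scores of at least 5), with 5 within 100 kb and 4 with GENCODE. That of Pdgfa was 2, but 0 with scores of at least 5 or with GENCODE, and that of Ereg was -1, but 1 with scores of at least 5. The cause was not tested. None of the 16 named pairs turned direction where it could be recomputed (median scaling, stricter overlap, score limit and distance limit). That outcome was fixed in advance. The overlap, score and distance limits kept or dropped a named pair without changing its scores. Median scaling shifted the pairs of a factor by less than the 2-fold difference for which they were named. Peaks cut to 200 bp left the 4 co-occupancy counts (9, 4, 23 and 27) as they were. No paired analysis was possible because each group holds 1 sample, so no replicate could be left out either. The depth of the libraries is unknown, and a peak missing from a list is not shown to be unbound.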
